A study of Homo sapiens with 6 samples.

Results

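The tumor necrosis factor (TNF) ligand superfamily and the receptors that bind its members were examined in OE33 cells, an established line from a human esophageal adenocarcinoma. Members were the protein-coding genes whose symbol begins with TNFSF or TNFRSF followed by a number, and 33 of the 58735 genes in the count table met this rule. They comprised 12 ligands and 21 receptors, and the receptors were divided by role into 5 death receptors, 12 receptors that activate NF-kB without a death domain and 4 decoy receptors. A pair of antisense genes that carry a member's symbol, TNFRSF10A-AS1 and TNFRSF14-AS1, was left out. Superfamily genes with other names, such as TNF and FAS, fall outside the rule and are given only as pathway context.

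The acidified bile salts (ABS) group held OE33 cells kept for 20 min at pH 4.0 in medium without supplements that contained bile salts at 200 µM. These cells were then washed and left for 6 h in complete medium before harvest. The control (Ctrl) group held OE33 cells that the labels describe as untreated. Each group had 3 libraries of polyadenylated RNA from independent biological replicates, and the exposure is presented as a model of acute reflux injury. The bile salt mixture was not specified, and no group was labelled as given acid, bile salts or the exposure medium alone. Effects of acid, bile salts, medium and handling therefore cannot be told apart, and a single line cannot stand for other tumors or for normal epithelium.

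TNF superfamily ligands are mostly trimeric membrane proteins that can be shed, and they act by clustering receptors on the target cell. Death receptors carry a cytoplasmic death domain, which recruits adaptors such as FADD or TRADD and can lead to caspase activation, although some of them also signal to NF-kB. The other signalling receptors recruit TRAF adaptors directly and activate the canonical or the alternative NF-kB route, while decoy receptors bind ligand without passing on a full signal. In epithelia, these systems govern the turnover of damaged cells and the dialogue with immune cells, which supply many of the ligands.

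Untreated OE33 cells had abundant transcripts of a few receptors and little ligand transcript. Levels between genes are compared in TPM, a unit in which counts are divided by gene length and each library is brought to the same sum. TNFRSF12A averaged 952 ± 105 TPM in ABS libraries and 938 ± 146 TPM in Ctrl libraries (SD, n = 3 each), and TNFRSF21 averaged 505 ± 14.9 TPM in ABS and 429 ± 73.3 TPM in Ctrl libraries. These were the leading members in both groups, and together they supplied 76.9% of the family's TPM in ABS and 76.1% in Ctrl libraries. After ABS, none of the 20 members tested passed the threshold, and the members with the smallest p were the receptors TNFRSF11A, TNFRSF19 and TNFRSF21, all with higher means in ABS libraries. In bulk RNA, a change in the share of cells that hold a transcript and a change in the amount per cell cannot be told apart.

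The test was edgeR's quasi-likelihood test on the counts of all 13768 genes that passed a filter on low counts, with Benjamini-Hochberg adjustment and a threshold of 0.05. It called 60 genes, 0.436% of those tested, of which 51 (0.37%) were higher and 9 (0.0654%) lower in ABS than in Ctrl libraries. Among the 20 tested members it called 0, while 3 had an unadjusted p under 0.05, against a background of 9.75% of all tested genes. All 3 were higher in ABS, a direction in which 5.61% of all tested genes had an unadjusted p under 0.05. DESeq2 called 1 member, TNFRSF11A, against 1.92% of all tested genes, and limma-voom called 0, against 0.45%. DESeq2 gave no adjusted p for TNFSF12, TNFRSF13C, TNFRSF9, TNFRSF10C and TNFRSF11B and so could not call them. Its share of 1.92% is of all 13768 genes, those without an adjusted p included. Without a filter on low counts edgeR called TNFRSF11A and TNFRSF19, against 1.64% of the genes then tested. The remaining 13 members were too low to be tested. The 20 had passed a filter on counts, so counts over them do not describe the whole family.

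The promoters of the 3 receptors with the smallest p are shown because the comparison turns on these members. Each is a window of RefSeq (GRCh38.p14) that ends just before an annotated transcript start, covers at most 250 bases, and excludes bases in an annotated exon of the gene. All are written 5′ to 3′ on the gene's own strand. Capitals mark matches, on either strand, to the NF-kB consensus of 10 letters, to the AP-1 site TGANTCA, to the aryl hydrocarbon receptor core GCGTG, to the GC box GGGCGG or to the TATA box TATAAA. TNFRSF21 is on the minus strand at chr6:47309906-47310155. TNFRSF19 is on the plus strand and has an upstream start with the window chr13:23570162-23570369 and a downstream start with the window chr13:23579110-23579358. TNFRSF11A is on the plus strand at chr18:62325060-62325286.
TNFRSF21: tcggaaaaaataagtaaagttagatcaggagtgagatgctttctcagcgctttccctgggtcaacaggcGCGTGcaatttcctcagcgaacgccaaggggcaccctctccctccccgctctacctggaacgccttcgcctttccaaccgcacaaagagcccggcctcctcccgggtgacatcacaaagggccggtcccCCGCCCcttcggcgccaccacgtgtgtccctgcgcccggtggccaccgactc
TNFRSF19 upstream start: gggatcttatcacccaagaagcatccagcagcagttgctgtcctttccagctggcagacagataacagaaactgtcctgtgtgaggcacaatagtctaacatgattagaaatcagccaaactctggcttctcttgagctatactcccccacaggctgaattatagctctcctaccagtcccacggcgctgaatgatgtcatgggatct
TNFRSF19 downstream start: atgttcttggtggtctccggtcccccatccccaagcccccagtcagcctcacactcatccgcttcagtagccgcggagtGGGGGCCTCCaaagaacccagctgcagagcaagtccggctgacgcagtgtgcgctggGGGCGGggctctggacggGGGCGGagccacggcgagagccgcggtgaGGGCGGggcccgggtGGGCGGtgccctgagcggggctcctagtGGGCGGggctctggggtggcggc
TNFRSF11A: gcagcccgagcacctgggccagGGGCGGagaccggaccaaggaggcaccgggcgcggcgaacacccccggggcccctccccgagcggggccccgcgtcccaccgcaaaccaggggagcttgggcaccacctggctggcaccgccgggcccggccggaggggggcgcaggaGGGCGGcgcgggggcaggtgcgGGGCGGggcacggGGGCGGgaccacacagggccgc
The TNFRSF11A window held 4 GC boxes and the downstream TNFRSF19 window held 5 together with an NF-kB match 171 bases before the start. The upstream TNFRSF19 window held none of these letters, and the TNFRSF21 window held 1 GC box and 1 GCGTG core. No marked match overlapped another in these windows. Over the 250 bases before the start, a GC box was present in 42.6% of the 35116 windows in the table, GCGTG in 32.2%, TATAAA in 10.7%, the NF-kB consensus in 9.96% and the AP-1 site in 6.57%. The table matched 21 of the 33 members, which had 26 windows. Of these 26, 15 held a GC box, 7 the NF-kB consensus, 6 GCGTG, 4 TATAAA and 4 the AP-1 site. A match describes letters only, and no binding was measured. TNFRSF12A had no entry in the table.

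Libraries held between 22145676 and 25235686 counts and between 18127 and 19927 detected genes, and the family took 0.127% to 0.149% of the counts. Where a gene had 0 counts, up to 3 could have been missed, which equals 0.119 to 0.135 CPM, a unit that corrects counts for library size. Such limits cover counting error only. The replicate 3 libraries resembled each other more than their own groups. Over the tested genes, ABS replicate 3 and Ctrl replicate 3 differed by 0.413 (root mean square of log2 CPM differences), against 0.452 and 0.501 between ABS replicate 3 and the other ABS libraries and 0.461 and 0.438 between Ctrl replicate 3 and the other Ctrl libraries. Differences are therefore also given within replicates 1 and 2 alone and for the replicate 3 pair, beside the results they touch. The cells carried their labelled epithelial identity. All 8 epithelial markers, including EPCAM and KRT19, lay above 1 TPM, and their sum was 26546 to 27255 TPM in ABS and 26525 to 28029 TPM in Ctrl libraries. Of 10 immune markers, 6 had 0 counts in every library, among them the pan-leukocyte gene PTPRC and the T-cell genes CD3D and CD3E. The sum of the immune markers was 11.3 to 13.5 TPM in ABS and 11.6 to 13.9 TPM in Ctrl libraries, nearly all of it from CD14 and LYZ. Fibroblast markers summed to 1.01 to 1.88 TPM in ABS and 1.05 to 1.24 TPM in Ctrl libraries, with COL1A2 and DCN at 0, and endothelial markers to at most 0.121 TPM in ABS and 0.347 TPM in Ctrl libraries.

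**Figure D1:**
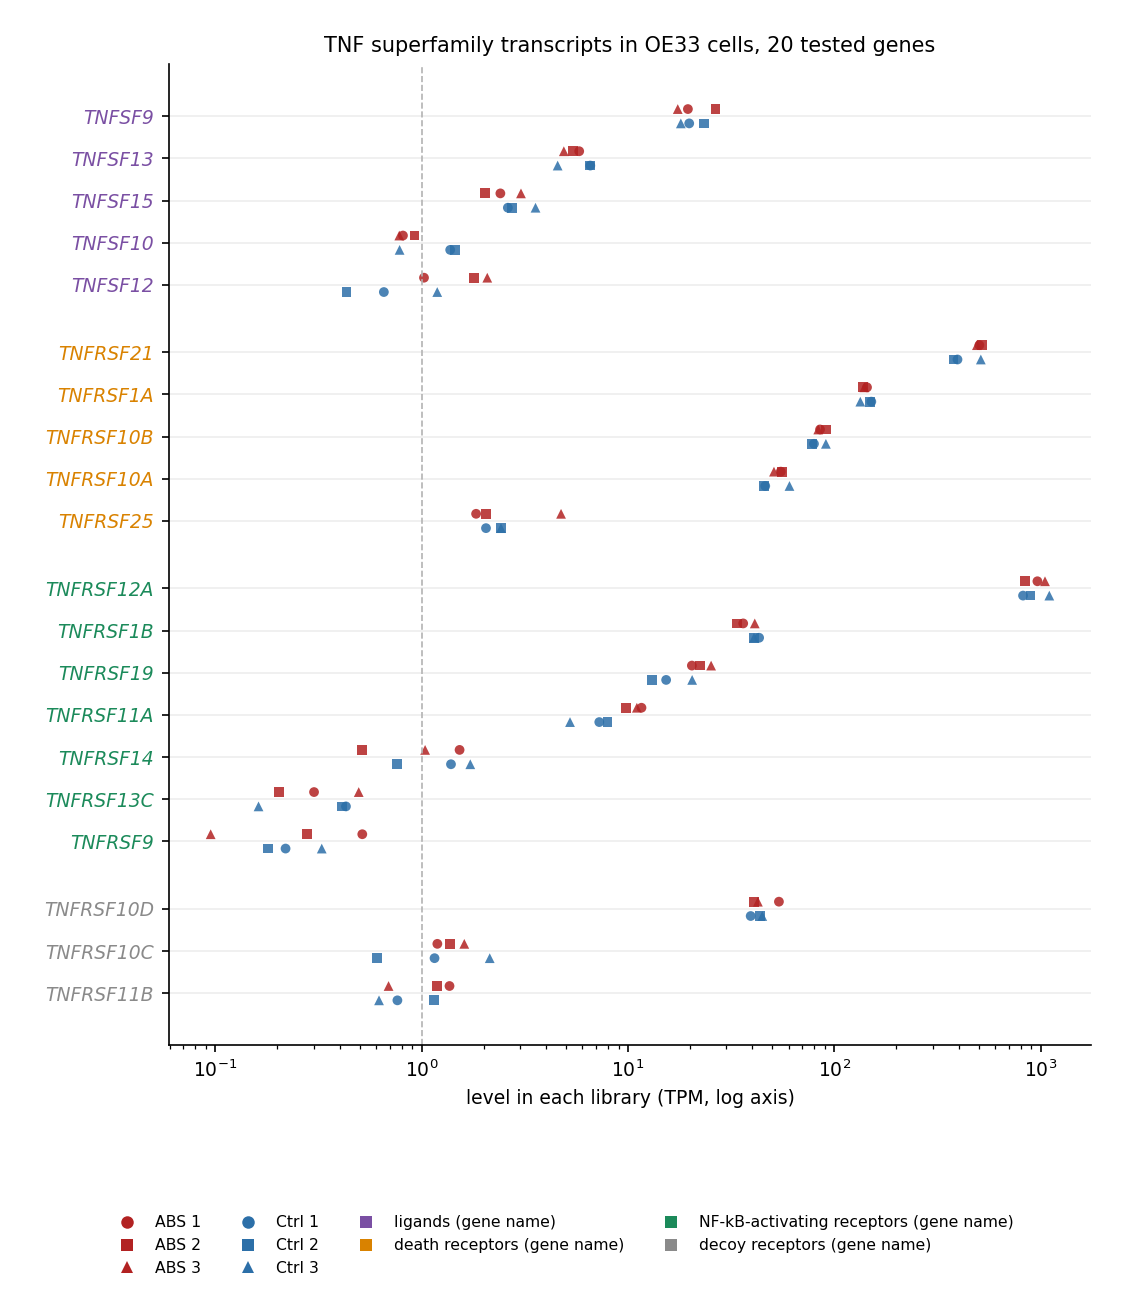
Level of the 20 tested superfamily genes in each library, in TPM on a log axis, with ABS libraries above Ctrl libraries for each gene and marker shapes for replicates 1 to 3. The dashed line stands at 1 TPM, and TNFRSF12A, at 822 TPM or more in every library, leads a range that reaches down to TNFRSF9 and TNFRSF13C below 1 TPM.

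In Ctrl libraries, 16 of the 33 members had a mean of at least 1 TPM and 9 of at least 10 TPM, and 8 of those 9 were receptors. TNFRSF12A ranked 122 and TNFRSF21 ranked 302 among protein-coding genes by mean Ctrl TPM. The order then ran through TNFRSF1A at 145 ± 9.59 TPM, TNFRSF10B at 82.8 ± 7.18 TPM and TNFRSF10A at 50.9 ± 8.44 TPM (SD, n = 3 Ctrl libraries). From TNFRSF12A down to TNFRSF10A, the Ctrl values of neighbours in this order did not overlap. Every Ctrl value of TNFRSF10A also lay above those of TNFRSF10D at 42.6 ± 2.87 TPM and TNFRSF1B at 41.6 ± 1.35 TPM. TNFRSF10D and TNFRSF1B overlapped, so the order of this pair was not resolved. TNFSF9, at 20.4 ± 2.68 TPM, and TNFRSF19, at 16.3 ± 3.78 TPM, also overlapped, and TNFRSF11A at 6.82 ± 1.41 TPM and TNFSF13 at 5.90 ± 1.16 TPM overlapped in turn.

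Among the ligands, TNFSF9 led. TNFSF9 encodes the ligand of the T-cell costimulatory receptor encoded by TNFRSF9. It had 8.83, 12.1 and 7.57 CPM in ABS libraries 1, 2 and 3, against 9.10, 10.9 and 7.78 CPM in Ctrl libraries 1, 2 and 3, after TMM scaling, which adjusts library sizes for composition. The groups overlapped fully, and its log2 fold change was 0.04 ± 0.19 (SE), with a 95% interval of −0.38 to 0.45.

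TNFSF13, which encodes APRIL, a ligand for B-lineage cells, had 3.59, 3.37 and 2.90 CPM in ABS libraries against 4.12, 4.19 and 2.69 CPM in Ctrl libraries. TNFSF15 encodes TL1A, the ligand of TNFRSF25, and had 5.16, 4.37 and 6.24 CPM in ABS libraries against 5.70, 6.05 and 7.28 CPM in Ctrl libraries. Both sets of values overlapped, with log2 fold changes of −0.16 ± 0.25 for TNFSF13 and −0.27 ± 0.19 (SE) for TNFSF15. TNFSF10 encodes TRAIL, the ligand of the death receptors TNFRSF10A and TNFRSF10B. It had 19, 20 and 18 counts in ABS libraries against 31, 31 and 17 counts in Ctrl libraries. Ctrl replicate 3 lay at the ABS level and the other Ctrl libraries above it, and the log2 fold change was −0.54 ± 0.43 (SE, edgeR adjusted p = 0.755). Within replicates 1 and 2 the log2 difference was −0.67, and within the replicate 3 pair it was 0.01.

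TNFSF12, which encodes TWEAK, the ligand of TNFRSF12A, had 13, 21 and 26 counts in ABS libraries against 8, 5 and 14 counts in Ctrl libraries. ABS replicate 1 lay below Ctrl replicate 3 in counts and in CPM, so the groups overlapped. Its fold change had the largest size among the tested members, at a log2 of 1.08 with a 95% interval of −0.06 to 2.23 (edgeR adjusted p = 0.549). TNFSF12 shares 29.4% of its exon bases, and TNFSF13 55.5%, with the readthrough gene TNFSF12-TNFSF13 on the same strand. How reads in shared bases were counted was not given in the sources used here, so the levels of these 3 genes are uncertain.

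The other 7 ligands were not tested. TNFSF18 and TNFSF4 had 6 counts each over the ABS libraries, against 8 for TNFSF18 and 2 for TNFSF4 over the Ctrl libraries. The 6 TNFSF4 counts all came from ABS replicate 2. TNFSF11, which encodes RANKL, the ligand of TNFRSF11A, had 0 counts in ABS libraries and 3 counts, all in replicate 3, in Ctrl libraries. TNFSF13B had 1 count over ABS and 5 over Ctrl libraries, TNFSF14 and TNFSF12-TNFSF13 each had 0 over ABS and 1 over Ctrl libraries, and TNFSF8 had 0 in every library. A count of 0 allowed up to 0.168 TPM of TNFSF8 in a library. The ligands together supplied 1.69% of the family's TPM in ABS and 1.79% in Ctrl libraries.

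Among the death receptors, TNFRSF21 had the highest level and the smallest p. It encodes death receptor 6, which is known for roles in neurons and lymphocytes, and lies at chromosome 6, 47231532 to 47309905 (GRCh38, ENSG00000146072). It had 493, 511 and 461 CPM in ABS libraries 1, 2 and 3, against 392, 381 and 477 CPM in Ctrl libraries 1, 2 and 3. Ctrl replicate 3 lay within the ABS range, while the other Ctrl libraries lay below every ABS library. The log2 fold change was 0.23 ± 0.09 (SE), a ratio of 1.17, with an edgeR adjusted p of 0.400. The log2 difference was 0.38 within replicates 1 and 2 and −0.05 for the replicate 3 pair. TNFRSF21 passed the edgeR threshold without Ctrl replicate 3 (adjusted p = 0.0212), and over all alternatives its adjusted p lay between 6.04e-07 and 0.923.

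The means of TNFRSF1A, TNFRSF10B and TNFRSF10A differed little between the groups. TNFRSF1A encodes the main TNF receptor of epithelial cells and had 157, 151 and 146 CPM in ABS libraries against 167, 167 and 139 CPM in Ctrl libraries. Its log2 fold change was −0.06, with a 95% interval of −0.24 to 0.12. The TRAIL receptor gene TNFRSF10B had 120, 128 and 113 CPM in ABS libraries against 113, 112 and 122 CPM in Ctrl libraries. Its log2 fold change of 0.05 had a 95% interval of −0.11 to 0.22. TNFRSF10A, which encodes the other TRAIL death receptor, had 44.1, 44.8 and 39.3 CPM in ABS libraries against 37.7, 37.9 and 46.3 CPM in Ctrl libraries, a log2 fold change of 0.07 with a 95% interval of −0.15 to 0.30. For both TRAIL receptors, replicates 1 and 2 had the higher values in ABS and replicate 3 in Ctrl cells. The log2 difference was 0.13 for TNFRSF10B and 0.23 for TNFRSF10A within replicates 1 and 2, and −0.11 for TNFRSF10B and −0.24 for TNFRSF10A within the replicate 3 pair. An antisense gene and a further gene on the opposite strand cover 16.6% of the TNFRSF10A exon bases, and with no strand setting given, their reads cannot be told apart.

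TNFRSF25, the receptor gene for TL1A, was the lowest death receptor. It had 2.14, 2.40 and 5.30 CPM in ABS libraries against 2.42, 2.91 and 2.69 CPM in Ctrl libraries. ABS replicate 3 was well above the other 5 libraries, which lay close together. The log2 fold change was 0.30 ± 0.34 (SE, edgeR adjusted p = 0.849), and without ABS replicate 3 it was −0.23. The gene shares 2.43% of its exon bases with PLEKHG5 on the same strand and 8.94% with ESPN on the opposite strand.

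**Figure D2:**
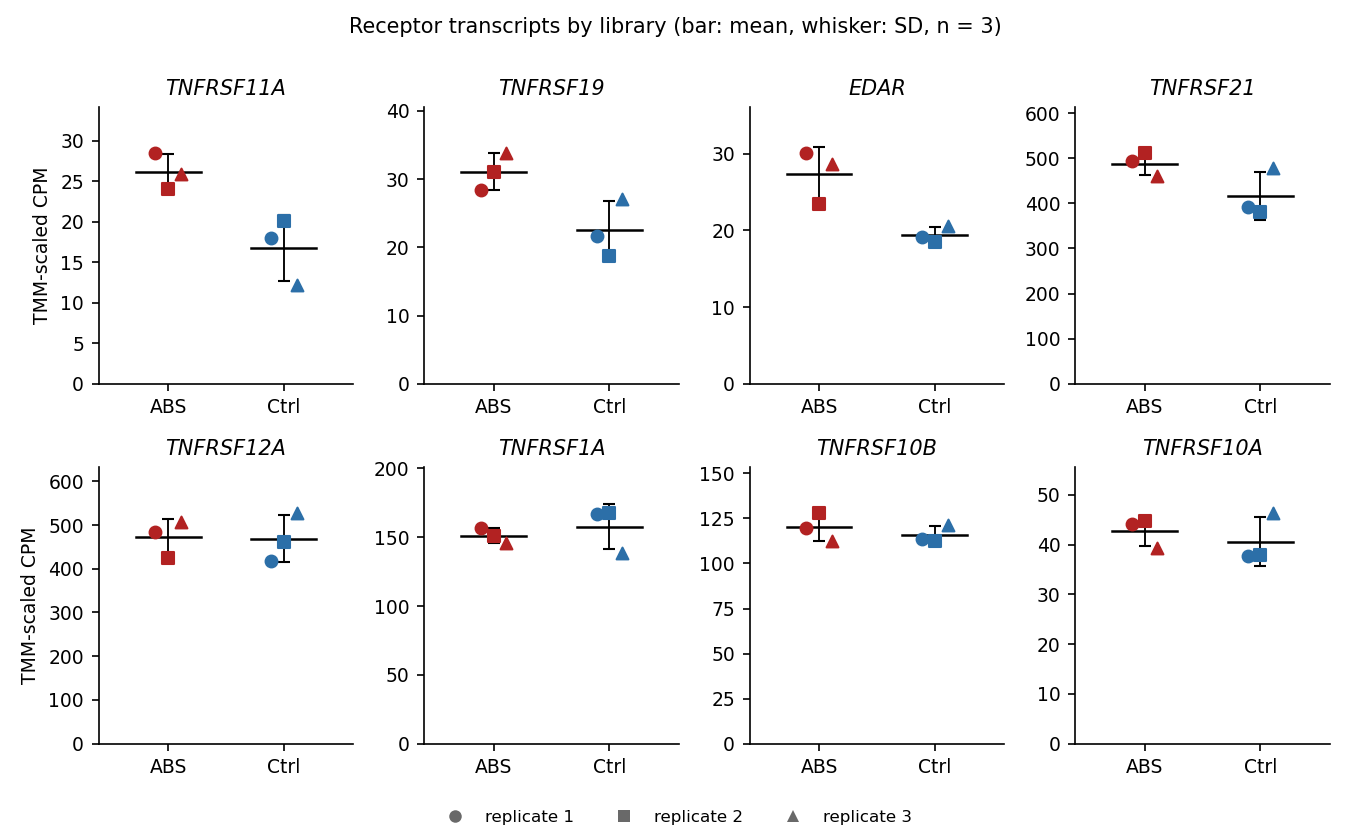
TMM-scaled CPM of 7 receptor genes of the superfamily rule and of EDAR in ABS (left) and Ctrl (right) libraries, with marker shapes for replicates, a bar for the mean and a whisker for the SD (n = 3). The groups do not overlap for TNFRSF11A, TNFRSF19 and EDAR, while for TNFRSF21 Ctrl replicate 3, at 477 CPM, lies within the ABS range.

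Among the receptors that activate NF-kB without a death domain, TNFRSF11A had the smallest p. TNFRSF11A encodes RANK, the receptor for RANKL, known for osteoclast formation and for epithelial growth in the mammary gland, and lies at chromosome 18, 62325287 to 62391292 (ENSG00000141655). It had 28.4, 24.0 and 25.9 CPM in ABS libraries 1, 2 and 3, against 18.0, 20.1 and 12.2 CPM in Ctrl libraries 1, 2 and 3. Every ABS library lay above every Ctrl library, and Ctrl replicate 3 was the lowest of all. The log2 fold change was 0.64 ± 0.16 (SE), a ratio of 1.56 with a 95% interval of 0.30 to 0.99 on the log2 scale and an edgeR adjusted p of 0.112. Over all alternatives the adjusted p lay between 8.07e-05 and 0.477, and it was 0.00995 with DESeq2. The log2 difference was 0.46 within replicates 1 and 2 and 1.08 for the replicate 3 pair, which rests on 1 library per group.

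TNFRSF19 encodes TROY, a receptor of embryonic epithelium and of the nervous system that has also been used as a marker of intestinal stem cells, and lies at chromosome 13, 23570370 to 23676104 (ENSG00000127863). It had 28.4, 31.1 and 33.8 CPM in ABS libraries against 21.6, 18.7 and 27.1 CPM in Ctrl libraries. Every ABS library lay above every Ctrl library, with ABS replicate 1 close to Ctrl replicate 3. The log2 fold change was 0.47 ± 0.13 (SE), a ratio of 1.38, with an edgeR adjusted p of 0.180 that lay between 0.000548 and 0.707 over all alternatives. Within replicates 1 and 2 the log2 difference was 0.56, and within the replicate 3 pair it was 0.32. TNFRSF11A and TNFRSF19 were the 2 tested members whose groups did not overlap, against a background of 14.5% of all tested genes, 7.57% with ABS above.

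TNFRSF12A encodes Fn14, a receptor that wounded and growing tissue induces, and lies at chromosome 16, 3018445 to 3022383 (ENSG00000006327). It had 484, 424 and 506 CPM in ABS libraries against 419, 462 and 527 CPM in Ctrl libraries. The groups overlapped fully, and its log2 fold change of 0.01 had a 95% interval of −0.20 to 0.21. Its sign changed with the scaling, since it was −0.003 with library size alone.

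TNFRSF1B encodes the second TNF receptor, which lacks a death domain. It had 37.0, 34.8 and 40.5 CPM in ABS libraries against 44.9, 43.2 and 39.8 CPM in Ctrl libraries. ABS replicate 3 lay above Ctrl replicate 3 and below the other Ctrl libraries, and the log2 fold change was −0.19 ± 0.09 (SE, edgeR adjusted p = 0.559). Within replicates 1 and 2 it was −0.29 with an edgeR adjusted p of 0.0305, and 0.02 for the replicate 3 pair, while over all alternatives the adjusted p reached 0.932.

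TNFRSF14 encodes HVEM, the receptor for LIGHT, and had 64, 20 and 43 counts in ABS libraries against 56, 29 and 67 counts in Ctrl libraries. Replicate 2 was lowest in both groups, and the log2 fold change was −0.33 ± 0.41 (SE). An antisense gene covers 13.4% of its exon bases. TNFRSF13C and TNFRSF9 encode superfamily receptors known from B cells (TNFRSF13C) and T cells (TNFRSF9). They had 4 to 13 counts (TNFRSF13C) and 4 to 22 counts (TNFRSF9) per library. The log2 fold change was −0.03 ± 0.61 for TNFRSF13C and 0.29 ± 0.63 (SE) for TNFRSF9. TNFRSF18, TNFRSF4 and TNFRSF8, which act mainly on lymphocytes, were not tested and had at most 6 counts in a library. The B-lineage receptor genes TNFRSF13B and TNFRSF17 had 0 counts in every library, which allowed up to 0.137 TPM of TNFRSF13B and 0.436 TPM of TNFRSF17.

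Of the decoy receptors, TNFRSF10D was the most abundant. TNFRSF10D encodes a TRAIL receptor with a truncated death domain and had 51.8, 39.3 and 39.4 CPM in ABS libraries against 38.4, 43.3 and 41.0 CPM in Ctrl libraries. ABS replicate 1 was above all other libraries, which overlapped, and the log2 fold change was 0.09 with a 95% interval of −0.16 to 0.34. TNFRSF10C, which encodes a membrane-anchored TRAIL receptor without a cytoplasmic part, had 15, 16 and 20 counts in ABS libraries against 14, 7 and 25 counts in Ctrl libraries. TNFRSF11B encodes osteoprotegerin, a secreted decoy for RANKL that also binds TRAIL. It had 26, 21 and 13 counts in ABS libraries against 14, 20 and 11 counts in Ctrl libraries, and its log2 fold change was 0.34 ± 0.48 (SE). TNFRSF6B, the soluble decoy for Fas ligand, had 0 counts in every library. All of its exon bases, 100%, also belong to the readthrough gene RTEL1-TNFRSF6B, which had 9, 21 and 23 counts in ABS and 18, 9 and 22 in Ctrl libraries. The 0 of TNFRSF6B therefore cannot be read as absence of its transcript. TNFRSF10C shares 39.3% of its exon bases with other annotated genes on its strand, and the 4 TRAIL receptor genes have similar sequences, so their separate levels depend on how reads were assigned.

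**Figure D3:**
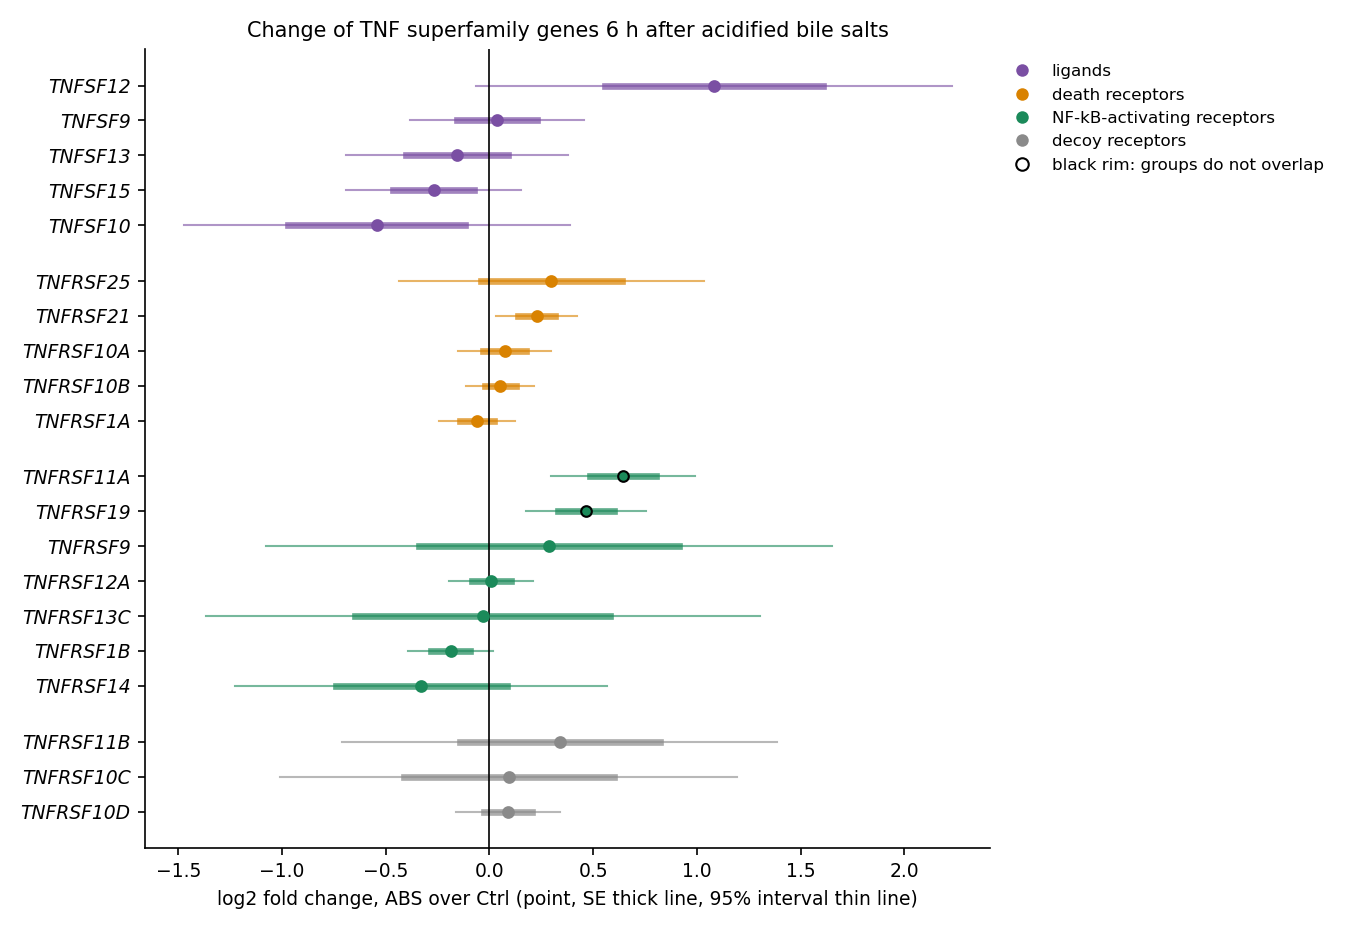
Log2 fold change of the 20 tested members, ABS over Ctrl, by class, with the SE as a thick line and the 95% interval as a thin line. Black rims mark TNFRSF11A and TNFRSF19, whose ABS and Ctrl values do not overlap, and of the other intervals that of TNFRSF21 leaves out 0, at 0.03 to 0.42.

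Death receptors and NF-kB-activating receptors were next set side by side. All 5 death receptors were tested, and 4 had positive log2 fold changes, with a median of 0.07 and a range of −0.06 to 0.30. Of the 12 NF-kB-activating receptors, 7 were tested, and 4 of these had positive log2 fold changes, with a median of 0.01 and a range of −0.33 to 0.64. The median over all 13768 tested genes was −0.004. Neither class held a gene past the threshold. The class medians differed by 0.06, death minus NF-kB-activating, against a spread between replicates of 0.27. This difference changed sign when single libraries were left out. It was −0.17 without ABS replicate 2, −0.16 without Ctrl replicate 1 and −0.11 without Ctrl replicate 2. The 3 tested decoy receptors had a median of 0.09 and the 5 tested ligands a median of −0.16.

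As summed levels, death receptors had 791, 807 and 770 TPM in ABS libraries 1, 2 and 3, against 674, 653 and 801 TPM in Ctrl libraries 1, 2 and 3. Ctrl replicate 3 lay with the ABS libraries, and most of the sum was TNFRSF21. NF-kB-activating receptors had 1035, 908 and 1130 TPM in ABS libraries against 890, 955 and 1170 TPM in Ctrl libraries, and the groups overlapped. The ratio of the death receptor sum to the NF-kB-activating sum was 0.764, 0.888 and 0.682 in ABS libraries against 0.758, 0.684 and 0.684 in Ctrl libraries. With TNFRSF21 and TNFRSF12A left out, the ratio was 3.94 ± 0.409 in ABS and 4.19 ± 0.124 in Ctrl libraries (SD, n = 3 each). Both versions of the ratio overlapped between the groups.

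Ratios within ligand systems also overlapped between the groups. The TRAIL decoys TNFRSF10C and TNFRSF10D summed to 0.336 ± 0.0529 of the TRAIL death receptors in ABS and 0.330 ± 0.0256 in Ctrl libraries. TNFRSF1A was 3.82 ± 0.369 times TNFRSF1B in ABS and 3.47 ± 0.187 times in Ctrl libraries. TNFRSF10B was 1.61 ± 0.0499 times TNFRSF10A in ABS and 1.64 ± 0.121 times in Ctrl libraries (all on the TPM scale, SD, n = 3 each). TNFRSF11A was 8.52, 8.23 and 16.0 times its decoy TNFRSF11B in ABS libraries, against 9.51, 6.93 and 8.42 times in Ctrl libraries, where ABS replicate 3 alone stood high.

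**Figure D4:**
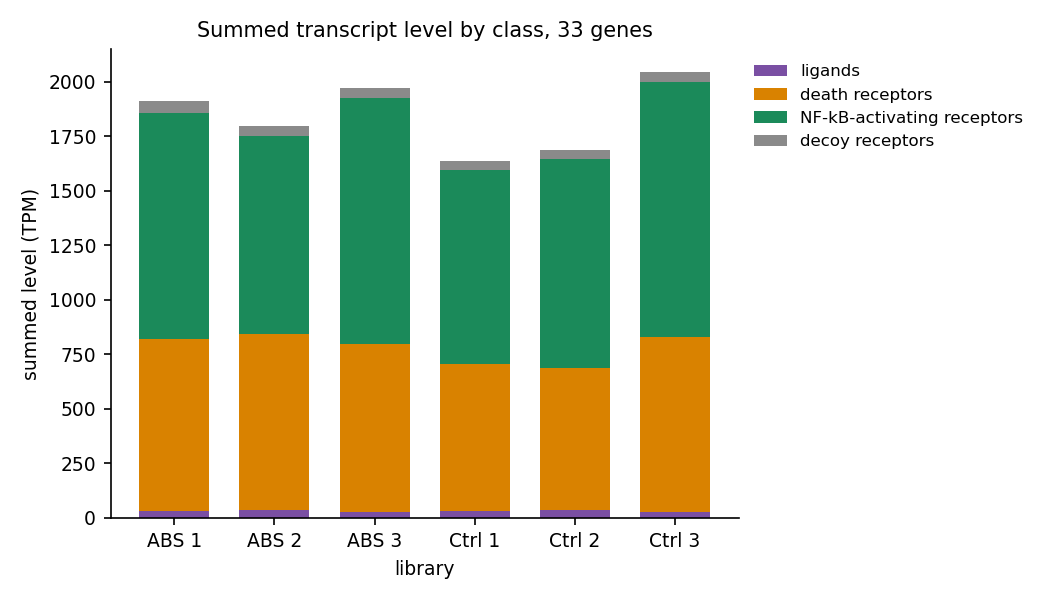
Summed TPM of the 33 members by class in each library, stacked from 0, with ABS libraries left of Ctrl libraries. NF-kB-activating and death receptors make up nearly the whole sum, ligands average 31.7 TPM in ABS and 31.6 TPM in Ctrl libraries, and Ctrl replicate 3 has the tallest bar.

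Known ligand and receptor partners were then matched within the cells. Of 26 pairs drawn up from textbook partners, 5 had both genes at 1 TPM or more on average in Ctrl libraries, namely TNFSF10 with its 4 TRAIL receptors TNFRSF10A, TNFRSF10B, TNFRSF10C and TNFRSF10D, and TNFSF15 with TNFRSF25. The 4 TNFSF10 pairs were marginal, since TNFSF10 had 1.38, 1.45 and 0.782 TPM in Ctrl libraries 1, 2 and 3. Its mean in ABS libraries was 0.838 TPM, so these 4 pairs did not reach 1 TPM in ABS libraries. TNFRSF10C was also low, at 0.609 TPM in Ctrl replicate 2. In 7 pairs the receptor alone reached 1 TPM. These included TNFRSF1A and TNFRSF1B with TNF, which had 0, 4 and 8 counts in ABS libraries against 1, 2 and 0 counts in Ctrl libraries, and FAS with FASLG at 0 counts throughout. They also included TNFRSF11A with TNFSF11, and TNFRSF12A with TNFSF12, whose mean was 1.63 ± 0.544 TPM in ABS and 0.759 ± 0.389 TPM in Ctrl libraries. In 5 pairs the ligand alone reached 1 TPM, among them TNFSF9 with TNFRSF9, and in 9 pairs neither did. The values are transcript levels in 1 cell line, and ligand supplied by other cells was outside the measurement.

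Genes that act downstream of or beside these receptors, superfamily genes with other symbols included, were examined in 7 lists. The lists held 65 genes, not all of them tested, and were chosen with earlier results of these data known. Over all tested genes, edgeR called 0.436%, 9.75% had an unadjusted p under 0.05, and for 14.5% the groups did not overlap. Of the listed genes the edgeR test called 1, RELB, which encodes the NF-kB subunit of the alternative route. RELB had 49.0, 54.0 and 56.5 CPM in ABS libraries against 31.2, 31.3 and 38.1 CPM in Ctrl libraries, without overlap. Its log2 fold change was 0.66 ± 0.10 (SE, edgeR adjusted p = 0.0156), and the call ended with library size alone and without ABS replicate 1, ABS replicate 2, Ctrl replicate 1 or Ctrl replicate 2, with adjusted p up to 0.144.

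Among 11 genes of NF-kB subunits and feedback, all tested, 1 rose, 0 fell and 10 had positive log2 fold changes, with a median of 0.31 against −0.004 over all tested genes. Unadjusted p was under 0.05 for 7 of the 11, all higher in ABS, against 5.61% of all tested genes in that direction. Over all tested genes, 6745 of 13768 had positive log2 fold changes. TNIP1, which encodes a partner of the feedback enzyme TNFAIP3, and NFKB2, which encodes the partner of RELB, had changes of 0.31 and 0.37 on the log2 scale, with edgeR adjusted p of 0.110 and 0.115 in that order. The log2 difference within replicates 1 and 2 was 0.41 for TNIP1 and 0.50 for NFKB2. For the replicate 3 pair it was smaller, 0.13 for TNIP1 and 0.14 for NFKB2. DESeq2 called 3 genes of this list, RELB, TNIP1 (adjusted p = 0.0205) and NFKB2 (adjusted p = 0.0196), against 1.92% of all tested genes. The limma-voom test called 1, RELB, against 0.45%. NFKBIA, which encodes an inhibitor of NF-kB, had 113, 118 and 127 CPM in ABS libraries against 59.0, 59.3 and 112 CPM in Ctrl libraries. Ctrl replicate 3 lay close to the ABS libraries and the other Ctrl libraries far below them. The NFKBIA log2 fold change was 0.64 (edgeR adjusted p = 0.218), and the log2 difference was 0.97 within replicates 1 and 2 and 0.18 for the replicate 3 pair. REL had a log2 fold change of 0.55 (edgeR adjusted p = 0.218), with log2 differences of 0.83 within replicates 1 and 2 and −0.06 for the replicate 3 pair.

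Of 10 TRAF and cIAP adaptors, 0 were called by edgeR and 3 had an unadjusted p under 0.05, against 9.75% of all tested genes. Positive log2 fold changes were seen for 7, against 6745 of 13768 tested genes, and the median was 0.10. BIRC3, which encodes an inhibitor of apoptosis that binds TRAF2, had 72.9, 69.4 and 68.2 CPM in ABS libraries against 32.8, 29.7 and 55.6 CPM in Ctrl libraries. The groups did not overlap, as for 14.5% of all tested genes, and Ctrl replicate 3 lay between the other Ctrl libraries and the ABS libraries. The log2 fold change was 0.83 ± 0.18 (SE, edgeR adjusted p = 0.0782). DESeq2 called 0 genes of this list, against 1.92% of all tested genes, and limma-voom 1, BIRC3, against 0.45%. On the log2 scale TRAF6 differed by 0.44, BIRC2 by 0.32 and TRAF4 by 0.11, with edgeR adjusted p between 0.178 and 0.633. Within replicates 1 and 2 the log2 difference was 1.19 for BIRC3, 0.55 for TRAF6, 0.48 for BIRC2 and 0.14 for TRAF4. For the replicate 3 pair it was 0.29 for BIRC3, 0.20 for TRAF6, −0.03 for BIRC2 and 0.06 for TRAF4.

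Of 13 kinases and ubiquitin enzymes on the route to NF-kB, edgeR called 0, and the median was −0.003. In that test 1, IKBKG, had an unadjusted p under 0.05, against 9.75% of all tested genes. DESeq2 and limma-voom called 0 of this list as well. MAP3K14, which encodes the NF-kB-inducing kinase, had 42.0, 44.1 and 49.8 CPM in ABS libraries against 13.1, 17.1 and 49.8 CPM in Ctrl libraries. Ctrl replicate 3 matched ABS replicate 3, and the log2 fold change of 0.76 ± 0.36 (SE) had an edgeR adjusted p of 0.528. It was 1.52 within replicates 1 and 2 and −0.002 for the replicate 3 pair. IKBKG had a log2 fold change of −0.28, MAP3K7 of −0.15 and TAB3 of 0.19, with edgeR adjusted p of 0.422, 0.622 and 0.671 in that order.

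Of 11 death signalling genes, 0 were called by edgeR, DESeq2 or limma-voom. In the edgeR test 1 had an unadjusted p under 0.05, against 9.75% of all tested genes. Their median log2 fold change was 0.10. The log2 fold change was 0.18 for the kinase gene RIPK1, 0.23 for the caspase inhibitor gene CFLAR and 0.11 for the initiator caspase gene CASP8, with edgeR adjusted p of 0.555 to 0.758. CFLAR had 73.6, 73.1 and 72.7 CPM in ABS libraries against 54.7, 55.2 and 76.6 CPM in Ctrl libraries, and Ctrl replicate 3 lay with the ABS libraries.

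Superfamily receptors with other symbols comprised 8 genes, of which 4 were tested. The edgeR test called 0, and 1, EDAR, had an unadjusted p under 0.05, against 9.75% of all tested genes. EDAR, which encodes the ectodysplasin receptor and is a close relative of TNFRSF19, had 30.1, 23.5 and 28.7 CPM in ABS libraries against 19.2, 18.4 and 20.6 CPM in Ctrl libraries. The groups did not overlap, the log2 fold change was 0.50 ± 0.12 (SE, edgeR adjusted p = 0.0999), and it was called by DESeq2 and not by limma-voom. The difference was 0.50 within replicates 1 and 2 and 0.48 for the replicate 3 pair. RELT (−0.14), LTBR (−0.05) and FAS (−0.05) had edgeR adjusted p of 0.770 to 0.945. Among 7 ligands with other symbols, EDA, the ligand of EDAR, was the 1 tested, with a log2 fold change of −0.15 ± 0.38 (SE), and 4 had 0 counts in every library.

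Of 5 genes of receptor shedding, 4 were tested and 0 called by edgeR, DESeq2 or limma-voom, and 0 had an unadjusted p under 0.05 in the edgeR test. The log2 fold change was 0.18 for the protease gene ADAM10, 0.12 for ADAM17, which encodes the main sheddase of TNF and its receptors, −0.03 for RHBDF1 and 0.02 for RHBDF2, which encode partners of that sheddase.

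**Figure D5:**
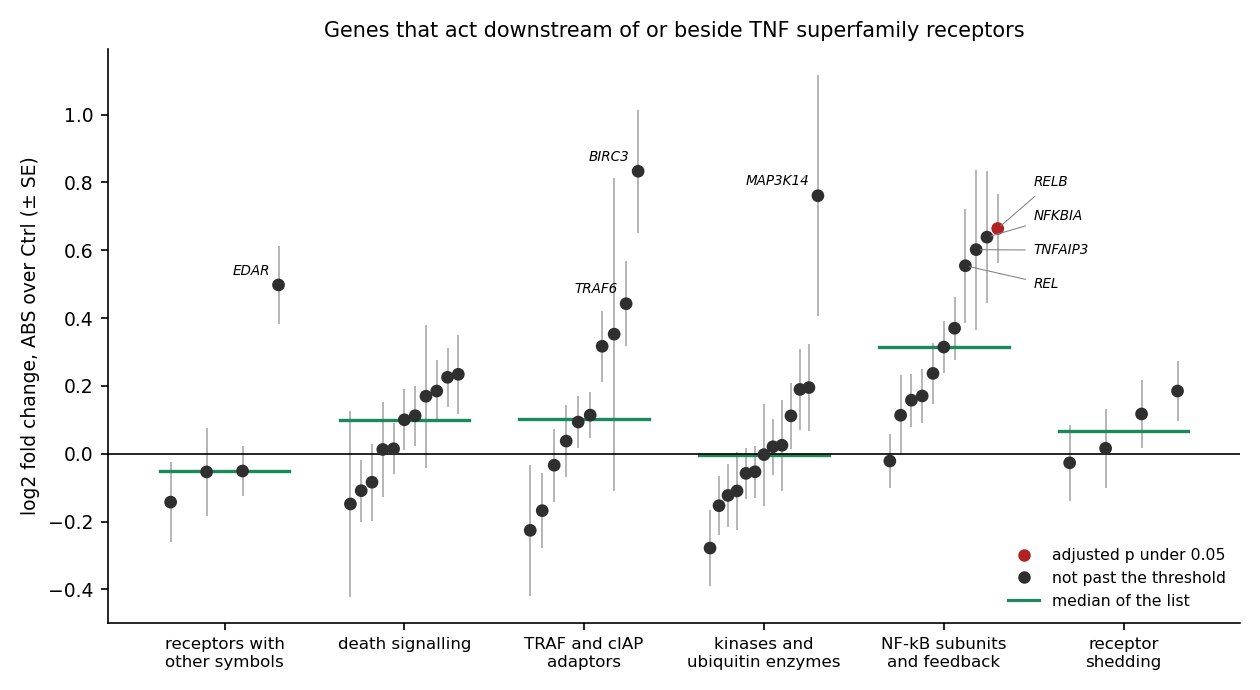
Log2 fold change, ABS over Ctrl, of the tested genes of 6 pathway lists, with the SE as a grey line and the median of each list as a green line. RELB, in red, passed the edgeR threshold, the subunit and feedback list has the highest median, at 0.31, and the other medians lie between −0.05 and 0.10. EDA, the tested ligand with another symbol, is not drawn.

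For a number of these genes Ctrl replicate 3 was the highest or the lowest Ctrl library. Any 1 of 3 libraries is so for many genes, and the share over all tested genes was not computed. In Ctrl replicate 3, TNFRSF21, TNFRSF10A, CFLAR, BIRC3, NFKBIA, TNFAIP3 and MAP3K14 were among the genes above the other Ctrl libraries. Genes below them included TNFRSF11A, TNFRSF1A, TNFRSF1B, TNFSF9, TNFSF10, TNFSF13 and FAS. TNFAIP3, named after its values were seen, had 191, 185 and 172 CPM in ABS libraries against 88.2, 83.4 and 189 CPM in Ctrl libraries. Without Ctrl replicate 3, edgeR called 2 members, TNFRSF19 and TNFRSF21, against 3.1% of all tested genes. With a term for the replicate 3 libraries it called 2, TNFRSF11A and TNFRSF19, against 3.38%. Within replicates 1 and 2, it called 4 of the tested members, against 13.2%. These were TNFRSF11A, TNFRSF19 and TNFRSF21, higher in ABS, and TNFRSF1B, lower in ABS. Leaving out libraries that stand apart lowers the spread by construction. Whether the replicate 3 libraries differed in culture, exposure or preparation was not tested.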

How the data were processed

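Polyadenylated RNA was sequenced in 3 ABS and 3 Ctrl libraries of OE33 cells. The deposited table holds whole-number counts per gene, which the authors made with HISAT2 2.0.5 and featureCounts 1.5.0-p3 on GRCh38, per the submitters' processing notes. The strand setting and the treatment of shared reads were not given in the sources used here. The coordinates and lengths of all 33 members equalled those of GENCODE release 29, and positions are on GRCh38. Members and lists were chosen with earlier results of these data known.

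Counts were tested with edgeR 4.0.16 in R 4.3.3 (filterByExpr with a minimum count of 10 and total of 15, TMM, quasi-likelihood test, group alone as term), with Benjamini-Hochberg adjustment over all tested genes. An SE is the size of the log2 fold change divided by the square root of F. Log2 differences within replicates are of CPM + 0.1. TPM used the deposited gene lengths. DESeq2 1.42.0, limma 3.58.1 (voom), other scalings and filters, and leaving out libraries were alternatives. The procedure was also run on simulated counts with a fixed dispersion and no difference specific to replicate 3. That run does not show how well changes were found in these data. Full values were given for members of at least 1 TPM in any library or with an unadjusted p under 0.05. Of each pathway list, genes past the threshold and up to 4 more with the smallest p were named, except 1 gene that is not reported here. Figures used matplotlib.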

Additional observations from a re-analysis of the deposited data

How the results depend on the processing

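Over 16 alternatives of the gene test, 314 values of the 20 tested members were computed, and 18 changed sign. The count of members called higher was 1 with DESeq2, 2 without a filter on low counts, 2 with the replicate block, 2 with a term for the replicate 3 libraries, and 3 higher and 1 lower within replicates 1 and 2. It was 0 to 2 when single libraries were left out. The pathway count of 1 was 0 with library size alone, 4 with DESeq2, 2 with limma-voom, 9 without a filter, 8 with the replicate block, 9 with the replicate 3 term, and 20 higher and 1 lower within replicates 1 and 2. It was 0 to 9 when single libraries were left out, with 9 without Ctrl replicate 3 and 5 without ABS replicate 3. The share of all tested genes called moved as well, from 0.436% in the main fit. It was 0.254% with library size alone, 0.45% with limma-voom, 1.92% with DESeq2 and 1.64% without a filter. With the replicate block it was 2.54%, with the replicate 3 term 3.38% and within replicates 1 and 2 13.2%. Without Ctrl replicate 3 it was 3.1%, and without ABS replicate 3 1.94%. The count of members at 1 TPM in Ctrl libraries was 16 and lay between 13 and 18 under other floors and scales.

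Leaving out single libraries changed the sign of several log2 fold changes of small size. Ranges over those fits were −0.17 to 0.18 for TNFSF9, −0.23 to 0.53 for TNFRSF25, −0.0673 to 0.0979 for TNFRSF12A, −0.40 to 0.20 for TNFRSF13C and −0.39 to 0.72 for TNFRSF9. They were −0.0547 to 0.161 for TNFRSF10D, −0.23 to 0.60 for TNFRSF10C, −0.39 to 0.0105 for EDA, −0.18 to 0.0666 for FAS, −0.16 to 0.0442 for RHBDF1 and −0.12 to 0.10 for RHBDF2. Within replicates 1 and 2 the value was −0.23 for TNFRSF25 and −0.0837 for RHBDF2, with library size alone −0.0032 for TNFRSF12A, and with limma-voom 0.0282 for TNFRSF13C. The cause was not tested.

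Same-numbered libraries are not stated to be paired. Their deviations from the group means correlated across genes at 0.04, 0.03 and 0.17, so that not every pair exceeded 0.1, and not every library correlated best with its own number. The replicate block is given here alone. It called 350 genes, 2.54% of those tested, with TNFRSF11A and TNFRSF19 among the members. With 3 libraries a group and members such as TNFSF12 at 5 to 26 counts, changes of low genes were not resolved at this depth.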
